A study of Arabidopsis thaliana with 8 samples.

Results

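The cuticle and epidermis genes described here are 10 named loci of Arabidopsis thaliana, ATML1, PDF2, MYB96, KCS1, CER6, FDH, CER1, CER3, LACS2 and ABCG11. They were picked by their locus identifiers from the 34354 rows of a table of leaf gene expression, and all 10 were found. All 10 also passed the filter on low values that 16831 genes passed, at least 1 FPKM in at least 2 libraries. FPKM count fragments relative to transcript length in kilobases and to the read total of a library. The study compared the Col-0 wild type with the double mutant pif4-2 pif5-3 (below, pif4 pif5) in the same background, each after a mock treatment and after heat. PIF4 and PIF5 encode basic helix-loop-helix transcription factors of light and temperature signalling. Plants were grown in soil at 22 °C for 3 weeks, the heat groups spent 5 h at 42 °C and recovered for 3 days, and RNA was sequenced from rosette leaves 3 and 4. The 4 groups were wild-type mock, wild-type heat, pif4 pif5 mock and pif4 pif5 heat, with 2 biological replicates each. The labels give 1 harvest time for all groups without stating the age of the mock leaves at harvest, so heat and a difference in leaf age cannot be told apart. According to the series' design text the leaf edges had started yellowing at harvest, and no group is named there.

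The cuticle is the lipid layer that seals the outer wall of the epidermis against water loss. It consists of cutin, a polyester of oxygenated fatty acids, and of waxes, which are very-long-chain fatty acids and the alkanes, alcohols and esters made from them. Epidermal cells activate 18-carbon acyl chains, elongate them at the endoplasmic reticulum, convert the long chains to alkanes or alcohols, and export the products through the plasma membrane. Transcription factors of the epidermal layer and of the drought response act upstream of these enzymes.

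The targeted genes matched the labels. PIF4 was at 131 ± 0.0201 FPKM (SD, n = 2) in wild-type mock and 33.6 ± 0.0192 in pif4 pif5 mock, and PIF5 at 64.8 ± 2.23 and 5.15 ± 0.637. Library depth, recovered from the steps of the FPKM values, ran from 16852240 to 29535916 reads. Behind the members stood between 86 and 259 reads per library for CER1, between 94 and 203 for LACS2 and between 6489 and 13405 for CER6. These counts bound the precision of each value, and CER1 and LACS2 are the least precise. Mesophyll markers reached a summed 16576 to 22304 FPKM over the 8 libraries, while 4 shoot meristem markers summed to at most 0.163 FPKM with WUS listed at 0 throughout. Of the labelled leaf tissue's epidermal markers ATML1, PDF2 and FDH were present, whereas PDF1 lay under 1 FPKM in all 4 group means.

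The members spanned a wide range of levels. In wild-type mock the order by mean FPKM, a level per transcript length, was CER6 (235), FDH (58.6), KCS1 (49.6), PDF2 (27.8), CER3 (24.9), MYB96 (24.8), ABCG11 (22.1), ATML1 (20.2), CER1 (3.91) and LACS2 (3.52). The libraries of CER3 and MYB96 overlapped there, and no other neighbours in that order did. CER6 stood at the 98.2 percentile of the genes tested in that group and LACS2 at the 22.7 percentile. In wild-type heat MYB96, at 8.89 FPKM, had moved below ATML1, at 10.5 FPKM, and the libraries of KCS1 and PDF2 overlapped. In pif4 pif5 mock CER1 was the lowest member, at 1.38 FPKM, below LACS2 at 2.79 FPKM. In pif4 pif5 heat the libraries of PDF2 and KCS1 overlapped, as did those of MYB96 with both ABCG11 and ATML1.

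**Figure D1:**
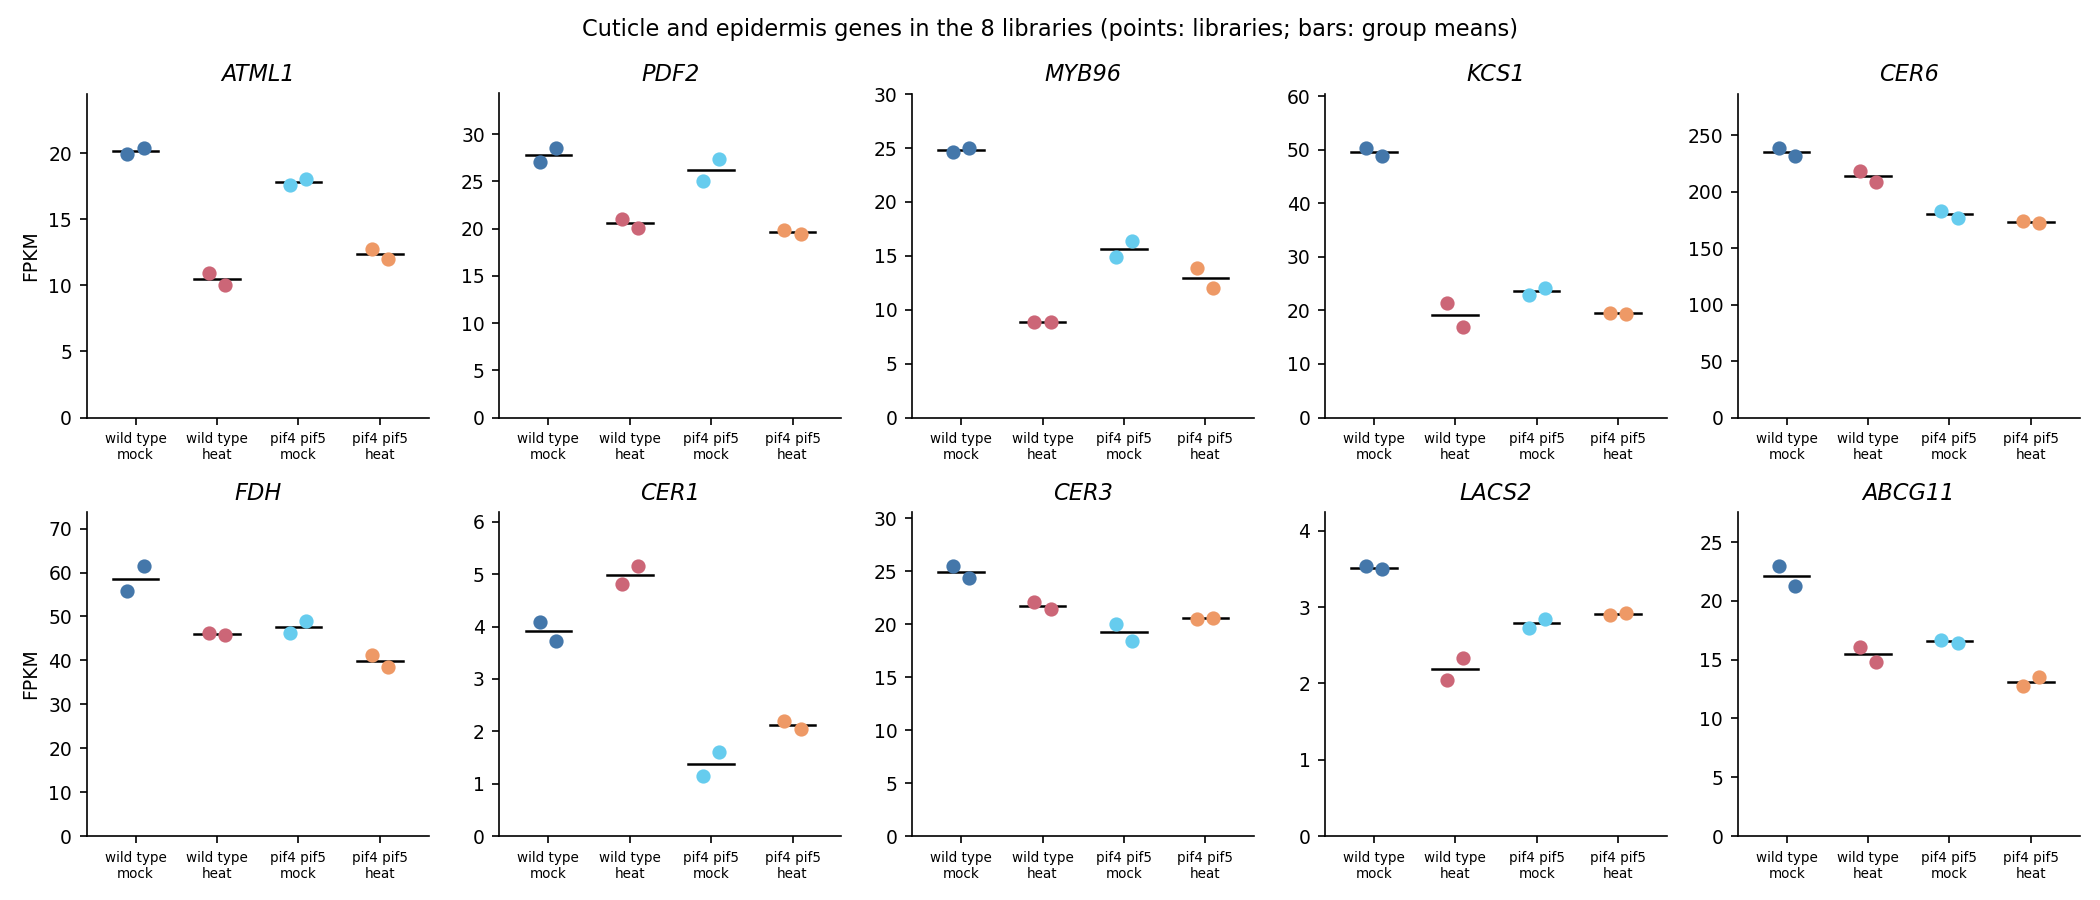
FPKM of the 10 cuticle and epidermis genes by group, with a linear axis from 0 in each panel. Points are the 8 libraries and black bars are group means (n = 2). MYB96 and KCS1 show the deepest drop from wild-type mock to wild-type heat, and CER1 is low in all 4 pif4 pif5 libraries.

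Bases just upstream of the genes are shown for the 2 members with the deepest fall after heat, MYB96 and KCS1, and for the 2 other members whose windows hold an L1 box, FDH and ABCG11. The L1 box is the 8-base element bound by ATML1 and PDF2, searched here as TAAATGCA and TAAATGTA on both strands of the 250 bases before each annotated gene start. Each window is written 5′ to 3′ on the strand of its gene in the RefSeq TAIR10.1 assembly, with L1 boxes in capitals, at chr5:25081142-25081391 (minus strand) for MYB96, chr1:59216-59465 (minus) for KCS1, chr2:11173279-11173528 (minus) for FDH and chr1:6142152-6142401 (plus) for ABCG11.
MYB96: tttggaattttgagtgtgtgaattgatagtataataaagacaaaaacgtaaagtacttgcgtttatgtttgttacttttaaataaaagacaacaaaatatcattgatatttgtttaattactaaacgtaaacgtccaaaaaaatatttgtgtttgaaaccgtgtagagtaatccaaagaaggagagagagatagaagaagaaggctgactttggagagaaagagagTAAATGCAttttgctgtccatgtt
KCS1: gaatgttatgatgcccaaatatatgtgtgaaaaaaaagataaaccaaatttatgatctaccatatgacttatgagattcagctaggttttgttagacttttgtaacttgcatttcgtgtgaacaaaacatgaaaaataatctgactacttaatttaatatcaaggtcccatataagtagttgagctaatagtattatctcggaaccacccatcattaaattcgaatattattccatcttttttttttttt
FDH: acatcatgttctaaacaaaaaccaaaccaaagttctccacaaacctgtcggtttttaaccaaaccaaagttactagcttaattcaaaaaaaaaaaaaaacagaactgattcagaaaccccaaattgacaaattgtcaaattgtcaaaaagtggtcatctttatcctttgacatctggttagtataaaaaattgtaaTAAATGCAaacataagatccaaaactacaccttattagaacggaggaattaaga
ABCG11: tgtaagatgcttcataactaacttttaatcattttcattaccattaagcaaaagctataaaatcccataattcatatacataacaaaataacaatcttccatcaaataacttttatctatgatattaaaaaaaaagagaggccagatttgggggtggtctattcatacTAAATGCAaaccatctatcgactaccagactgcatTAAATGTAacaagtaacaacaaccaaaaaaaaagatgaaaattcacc

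The form TAAATGCA stood at bases -24 to -17 from the annotated gene start in MYB96, -54 to -47 in FDH and -82 to -75 in ABCG11. ABCG11 held the form TAAATGTA as well, at -47 to -40. Of 27443 such windows of protein-coding genes, 1.57% held TAAATGCA and 3% held TAAATGTA. Among the members 3 of 10 had the first form and 1 of 10 the second. The windows were also searched for CACGTG (the G-box) and CACATG (the PBE-box), elements known to be bound by PIF proteins. No member's window held CACGTG, which 6.49% of all windows did. CACATG, in 11.1% of all windows, occurred in that of ATML1 alone among the 10, at -232 to -227. A match of letters is a description of the window and not a binding site. Among the windows of protein-coding genes, 1232 held an L1 box in either form, and 732 of those genes were tested. The changes of those 732 genes are set beside those of all genes under the comparisons.

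Most of the members were lower after heat recovery than in mock in the wild type. MYB96 and KCS1 fell furthest, ATML1 came next, and LACS2, ABCG11, PDF2 and FDH fell by smaller amounts. In all, 9 of 10 members fell and 0 rose at an adjusted p below 0.05, with 38.4% of all genes tested called, 21.5% higher and 16.9% lower. At an unadjusted p below 0.05 1 member, CER1, was higher, and limma-voom on recovered reads called it too. With quantile scaling the split over all genes was 2881 higher and 3829 lower against 3626 and 2842 without it, and the members were still 0 higher and 9 lower. The median log2 change was -0.46 for the members and 0.02 for all genes tested. Log2 changes refer to FPKM + 1, which understates those of low genes, and p-values are from limma, adjusted over all genes tested by Benjamini-Hochberg.

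Among the regulators, ATML1 (AT4G21750, chr4:11555039-11560771, TAIR10.1 for this and the other coordinates) encodes a class IV homeodomain-leucine zipper protein that specifies the epidermal layer. It was at 19.9 and 20.4 FPKM in the wild-type mock libraries and at 11.0 and 9.99 in the heat libraries. Both heat libraries lay below both mock libraries, a level 0.519 times that of mock. The log2 change was -0.89 ± 0.07 (SE, adjusted p = 1.2e-06). PDF2 (AT4G04890, chr4:2476390-2482447), which acts redundantly with ATML1, read 27.0 and 28.6 FPKM in mock and 21.0 and 20.0 after heat. PDF2 fell without overlap of the groups, by less than ATML1, with a log2 change of -0.42 ± 0.07 (adjusted p = 2.8e-04). The coding sequences of the pair are 84.2% identical over their alignment, and neither shares a 50-base stretch of transcript with any other gene.

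MYB96 (AT5G62470, chr5:25078991-25081141) encodes an R2R3 MYB factor of the abscisic acid and drought response that activates wax synthesis genes. Its 2 wild-type mock libraries read 24.6 and 25.1 FPKM, and its 2 heat libraries 8.90 and 8.88. The heat level was 0.358 times the mock level, the lowest ratio among the members, and the replicates nearly coincided within each group. The log2 change was -1.39 ± 0.08 (adjusted p = 6.3e-08). Only 0.23% of its 50-base stretches are shared with another gene, its relative MYB94.

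Acyl elongation is carried out by 3-ketoacyl-CoA synthases, of which 3 are members. KCS1 (AT1G01120, chr1:57164-59215), a synthase with a broad part in elongation, was at 50.4 and 48.9 FPKM in wild-type mock and at 21.3 and 16.9 after heat. The heat libraries differed from each other by 1.26 times, the widest replicate ratio of this gene, and both stayed far below mock. The log2 change was -1.34 ± 0.09 (adjusted p = 1.6e-07). CER6 (AT1G68530, chr1:25712414-25715024, KCS6 in the annotation), the main synthase for stem and leaf wax chains longer than those of membrane lipids, read 239 and 231 FPKM in mock and 218 and 209 after heat. That is a small and non-overlapping difference, at -0.14 ± 0.04 (adjusted p = 0.018), and the call was lost without the intensity trend, without wild-type mock replicate 1 or without wild-type heat replicate 2 (adjusted p = 0.11, 0.1 and 0.16). FDH (AT2G26250, chr2:11170416-11173278, KCS10), named FIDDLEHEAD after the organ fusions of its mutant, read 55.8 and 61.5 FPKM in mock and 46.3 and 45.9 after heat. FDH fell by 0.34 ± 0.06 on the log2 scale (adjusted p = 7.1e-04). The 3 synthases are 62.4% to 64.8% identical in coding sequence and share no 50-base stretch, and their levels after heat differed from mock to very different degrees.

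CER1 (AT1G02205, chr1:418416-422579) and CER3 (AT5G57800, chr5:23420184-23424117) together form the complex that makes alkanes from very-long-chain acyl chains. CER1 was the single member above mock, with 4.09 and 3.73 FPKM in mock and 4.81 and 5.16 after heat, a difference that was not called (0.29 ± 0.12, adjusted p = 0.09). CER3 was slightly lower after heat, at 25.5 and 24.3 FPKM in mock and 22.1 and 21.4 after heat. Its log2 change of -0.19 ± 0.06 was called (adjusted p = 0.036), but not without the intensity trend or when any 1 of the 4 wild-type libraries was left out, with adjusted p up to 0.18 over the alternatives.

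LACS2 (AT1G49430, chr1:18290942-18295905), a long-chain acyl-CoA synthetase needed for leaf cutin, read 3.54 and 3.49 FPKM in wild-type mock and 2.05 and 2.33 after heat. It fell to 0.622 times its mock level, by 0.50 ± 0.11 on the log2 scale (adjusted p = 0.0031). ABCG11 (AT1G17840, chr1:6142402-6146521) encodes a transporter that dimerises to export wax and cutin lipids. It read 23.0 and 21.3 FPKM in mock and 16.1 and 14.8 after heat, a fall of 0.49 ± 0.07 (adjusted p = 1.6e-04). On the opposite strand AT1G17850 and a non-coding locus overlap ABCG11, and 29.4% of its 50-base stretches lie in them. Since the use of strand in counting is not given, the values of ABCG11 are uncertain to that extent. AT1G17850 itself stood at 5.15 FPKM in wild-type mock and 5.91 in wild-type heat and was called in none of the 5 comparisons.

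In leaf RNA, fewer epidermal cells and less RNA per epidermal cell cannot be told apart. Other cell type markers gave mixed values beside these falls. Of 6 trichome markers 3 were tested, with a median log2 change of -0.21 in the wild type after heat. MYB23 fell from 1.74 to 0.871 FPKM, GL2 was at 1.11 and 0.823 FPKM and not called, and TTG1 rose from 31.1 to 35.6 FPKM. The call of TTG1 was lost under 7 of 17 alternatives, both scalings among them (adjusted p = 0.062 and 0.15), and that of MYB23 without wild-type mock replicate 1 (0.08) or wild-type heat replicate 2 (0.12). The summed trichome level, from 33.6 to 35.5 FPKM in mock to 36.3 to 39.4 after heat, is mostly TTG1. Of 10 guard cell markers 4 were tested and 1 rose, KAT1, whose call was lost under 5 of 17 alternatives, and MUTE was listed at 0 in all libraries. The guard cell sum went from 25.6 to 27 FPKM in mock to 29.4 to 30.7 after heat. Vascular markers summed to 473 to 474 FPKM in mock and 559 to 566 after heat, with 2 of 6 higher and 2 lower. Mesophyll markers summed to 19765 to 20500 and 20007 to 20980 FPKM, with 3 of 6 higher and 3 lower. Their part in the falls of the cuticle genes was not tested.

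The wider pathway was described with 57 further genes in 5 lists. Like the members, these lists were chosen with earlier results of these data known, so their counts are a description. In the wild type after heat 33 of them were tested, and 3 rose and 18 fell, with a median log2 change of -0.26 against 0.02 for all genes. Of 10 tested wax and elongation genes, 7 fell and 1 rose. KCS9, another elongation synthase, fell by 0.63 ± 0.05 (adjusted p = 8.2e-07). LACS1, an acyl-CoA synthetase of wax and cutin synthesis, rose from 8.58 ± 0.39 to 15.6 ± 0.0333 FPKM, a log2 change of 0.80 ± 0.07 (adjusted p = 2.9e-06). CER26, which modifies chain length in elongation, fell by 0.43 ± 0.06 (adjusted p = 6.1e-05).

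Cutin synthesis genes lay lower with 5 of 7 called. CYP86A2, a fatty acid omega-hydroxylase, fell from 27.2 ± 2.33 to 11.8 ± 1.61 FPKM, a log2 change of -1.14 ± 0.10 (adjusted p = 1.6e-06). GPAT8, a glycerol-3-phosphate acyltransferase of cutin monomer assembly, fell from 22.5 ± 1.6 to 11.4 ± 0.308 FPKM. CYP86A8, a second omega-hydroxylase, fell by 0.70 ± 0.11 (adjusted p = 2.3e-04). Of 4 export genes, 3 fell, namely the wax transporter gene ABCG12 (-0.45) and the lipid transfer protein genes LTPG1 (-0.50) and LTPG2 (-0.64).

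Of 6 tested regulators, 3 fell and 1 rose. DEWAX, a repressor of wax genes, rose from 110 ± 4.32 to 154 ± 0.32 FPKM, a log2 change of 0.48 ± 0.05 (adjusted p = 5.6e-06). MYB16, a MIXTA-like activator of cuticle genes, fell by 0.49 ± 0.08 (adjusted p = 5.4e-04), and MYB30, an activator of very-long-chain fatty acid genes, fell by 0.31 ± 0.07 (adjusted p = 0.0051, lost under 2 of 17 alternatives). Of 6 tested epidermis identity genes 1 rose and 0 fell. That was HDG1, a homeodomain relative of ATML1 (0.30 ± 0.10, adjusted p = 0.033), which lost its call under 4 of 17 alternatives, and with quantile scaling 0 of the 6 were called. At an unadjusted p and with limma-voom 0 of the 6 fell as well, unlike ATML1 and PDF2. Among the 732 tested genes with an L1 box in their window, 20.4% rose and 19.8% fell, against 21.5% and 16.9% of all genes, and their median log2 change was 0.01 against 0.02.

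In pif4 pif5 the same treatment was followed by fewer calls. Of the 10 members 5 fell and 1 rose, with 20.2% of all genes called, 6.28% higher and 13.9% lower. The split over all genes was 1057 higher and 2344 lower and turned to 1734 and 1170 with median-of-ratios scaling, where 3 members fell and 1 rose. The wild-type and pif4 pif5 heat comparisons share no libraries. ATML1 and PDF2 fell under each alternative tried. ATML1 went from 17.6 and 18.1 FPKM in pif4 pif5 mock to 12.8 and 12.0 after heat, a log2 change of -0.50 ± 0.07 (adjusted p = 9.6e-04). PDF2 went from 25.0 and 27.4 FPKM to 19.9 and 19.4, a change of -0.40 ± 0.07 (adjusted p = 0.0019), close to its wild-type change.

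MYB96 and KCS1, with the deepest falls in the wild type, changed less in pif4 pif5. MYB96 was at 14.9 and 16.4 FPKM in pif4 pif5 mock and at 13.9 and 12.0 after heat, a change of -0.26 ± 0.08 (adjusted p = 0.044) that lost its call under 12 of 17 alternatives. KCS1 went from 22.9 and 24.2 FPKM to 19.5 and 19.4, without overlap but not called (-0.26 ± 0.09, adjusted p = 0.054), and 6 of 17 alternatives called it. LACS2 read 2.72 and 2.85 FPKM in mock and 2.90 and 2.93 after heat (0.05 ± 0.11, adjusted p = 0.79). CER3, at 20.0 and 18.4 FPKM and then 20.5 and 20.6, was not called either (0.09 ± 0.06, adjusted p = 0.33).

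FDH fell from 46.3 and 49.0 FPKM to 41.3 and 38.6 (-0.25 ± 0.06, adjusted p = 0.014), and ABCG11 from 16.7 and 16.4 to 12.8 and 13.5 (-0.31 ± 0.07, adjusted p = 0.011). The call of FDH was lost under 4 of 17 alternatives, median-of-ratios scaling among them (adjusted p = 0.066), and that of ABCG11 under 3 of 17 (adjusted p up to 0.071). CER6 read 183 and 177 FPKM and then 174 and 172, a change of -0.06 ± 0.04 (adjusted p = 0.34) that was 0.021 with median-of-ratios scaling. CER1 rose from 1.15 and 1.61 FPKM to 2.20 and 2.05, a change of 0.40 ± 0.12 (adjusted p = 0.043). Its replicates in pif4 pif5 mock differed by 1.40 times, the widest replicate ratio of any member, and the call was lost under 9 of 16 alternatives, with adjusted p from 0.014 to 0.25.

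Among the other pathway genes, 2 of 33 rose and 11 fell in pif4 pif5, with a median of -0.12 against -0.06 for all genes, and with median-of-ratios scaling 3 rose and 7 fell. DEWAX rose in the mutant too, from 137 ± 6.19 to 201 ± 6.15 FPKM (0.55 ± 0.05, adjusted p = 3.7e-05). ABCG32, a transporter of cutin precursors, fell by 0.47 ± 0.06 (adjusted p = 5.0e-04), and CYP86A2 by 0.46 ± 0.10 (adjusted p = 0.0062). The wax gene CER26 (-0.314) and the regulator CER9 (-0.325) fell as well, and neither call was lost under any of 17 alternatives. ABCG12 (-0.305), ACC1 (-0.443), MYB94 (-0.336) and GPAT4 (-0.231) were called lower too, and lost their calls under 2, 6, 6 and 9 of 17 alternatives. LTPG1 was higher by 0.23 ± 0.08 (adjusted p = 0.047), a call lost under 7 of 17 alternatives with adjusted p up to 0.23. DEK1, a calpain required for the epidermal layer, fell by 0.58 ± 0.12 (adjusted p = 0.0056), a call lost without pif4 pif5 mock replicate 2 (adjusted p = 0.061). Of the other epidermis identity genes ANL2 (-0.23) and ALE2 (-0.33) were called lower, but ANL2 lost its call under 6 of 17 and ALE2 under 13 of 16 alternatives. With either scaling 1 of the 6 genes of that list was called lower, against 3 without. Mesophyll markers rose in 6 of 6 cases after heat in the mutant, or in 5 of 6 with quantile scaling. Their sum went from 16576 to 16797 FPKM in mock to 21693 to 22304. That shift was not tested as a source of the lower values of the epidermal genes. L1-box genes rose in 5.6% and fell in 16.4% of cases in pif4 pif5, against 6.28% and 13.9% of all genes.

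The difference between the heat changes was tested as the interaction of genotype and heat, as the change in pif4 pif5 minus the change in the wild type. It was higher than 0 for 5 of 10 members and lower for 0, with 31.9% of all genes called, 10.3% higher and 21.6% lower. At an unadjusted p, and with limma-voom, 0 were lower too. The median over all genes was -0.10, and it moved to -0.01 with median-of-ratios scaling and to 0.02 with quantile scaling. The split of all calls, 1732 higher and 3639 lower, became 2377 and 2495 with median-of-ratios scaling. For MYB96 and KCS1, the members with the largest differences, values relative to that median are therefore given too.

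MYB96 had the largest difference of the members, 1.13 ± 0.11 (adjusted p = 1.9e-05), or 1.23 relative to the median of all genes and 1.23 to 1.24 with the other scalings. KCS1 followed with 1.08 ± 0.12 (adjusted p = 5.0e-05), or 1.18 relative to the median and 1.17 to 1.19 with the other scalings. Both remained called under each of 16 alternatives. LACS2 differed by 0.55 ± 0.16 (adjusted p = 0.018), ATML1 by 0.39 ± 0.10 (adjusted p = 0.012) and CER3 by 0.28 ± 0.09 (adjusted p = 0.033). ATML1 lost its call without wild-type heat replicate 2 (adjusted p = 0.05), and CER3 and LACS2 lost their calls under 7 of 16 and 3 of 15 alternatives. For ATML1 the heat fall was thus smaller in pif4 pif5 than in the wild type, and for PDF2 the difference was 0.02 ± 0.09 (adjusted p = 0.87). That of FDH was 0.09 ± 0.09 (adjusted p = 0.44), that of CER1 0.11 ± 0.18 (adjusted p = 0.67), that of CER6 0.08 ± 0.06 (adjusted p = 0.31) and that of ABCG11 0.18 ± 0.10 (adjusted p = 0.2). CER6 was called higher with median-of-ratios scaling (adjusted p = 0.036) and ABCG11 with quantile scaling (adjusted p = 0.038). With either scaling 6 of 10 members were higher and 0 lower.

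**Figure D2:**
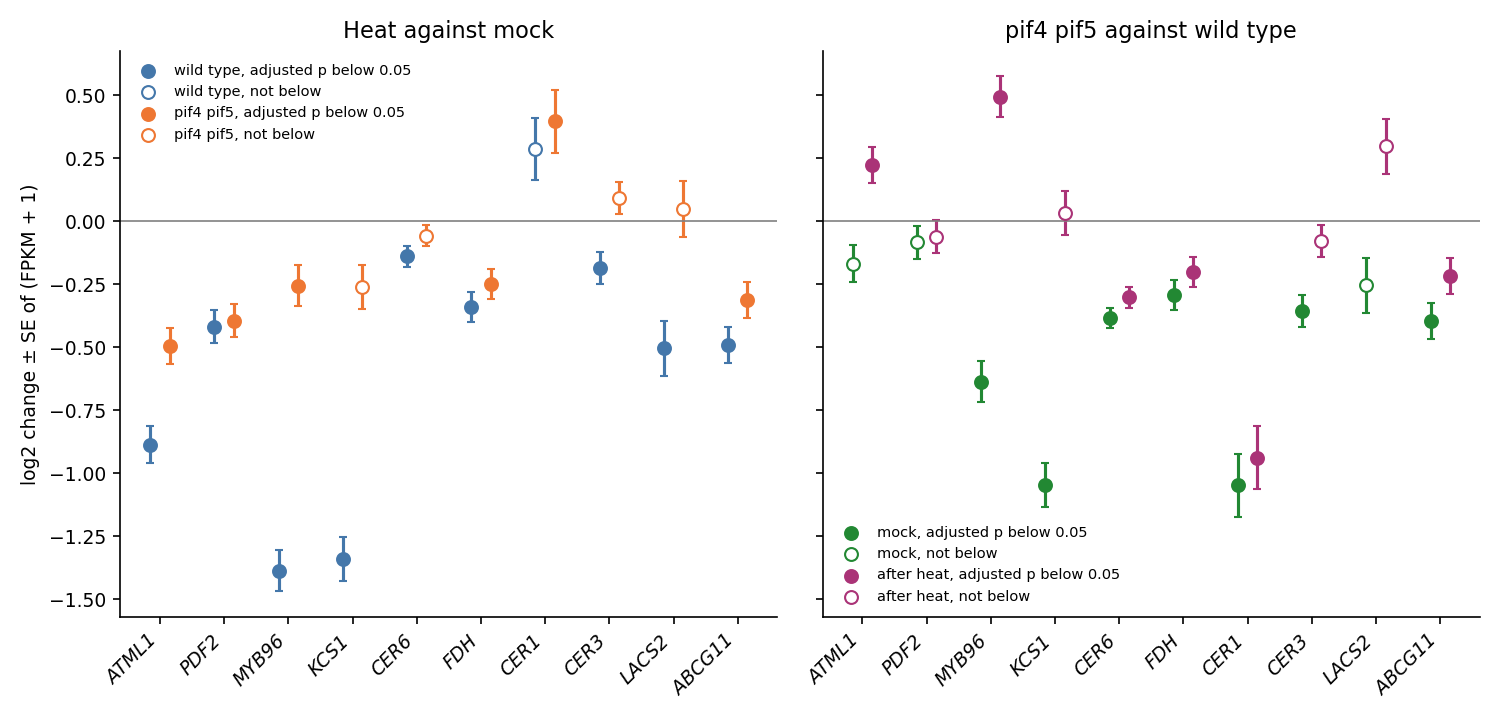
Log2 changes of (FPKM + 1) of the 10 members with their SE, for heat against mock in each genotype on the left and for pif4 pif5 against the wild type in each treatment on the right. Filled points have an adjusted p below 0.05, and the changes of MYB96 and KCS1 after heat are -1.39 and -1.34 in the wild type and -0.26 for both in pif4 pif5.

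Of the 33 further pathway genes, 10 had a higher and 5 a lower heat change in pif4 pif5. Cutin synthesis genes were 4 of 7 higher and 0 lower (0 at an unadjusted p and with limma-voom), among them GPAT8 (0.76 ± 0.11, adjusted p = 2.7e-04), CYP86A2 (0.67 ± 0.14, adjusted p = 0.0029) and CYP86A8 (0.55 ± 0.15, adjusted p = 0.015). GPAT8 was at 15.1 ± 0.147 FPKM in pif4 pif5 mock and 13.4 ± 0.974 after heat. The lipid transfer protein genes LTPG1 (0.73) and LTPG2 (0.61), the synthase gene KCS9 (0.51) and the regulators MYB16 (0.64) and MYB30 (0.33) had higher heat changes as well. LACS1 (-0.62), ACC1 (-0.65), the cytosolic acetyl-CoA carboxylase gene, DEK1 (-0.66) and CER9 (-0.35), an E3 ligase gene of cuticle lipid control, had lower ones. ABCG32 (-0.32) did too, a call lost under 5 of 16 alternatives, median-of-ratios and quantile scaling among them. Calls were also lost by MYB30 under 7 of 16 alternatives, by LTPG2 under 5 of 16, by CYP86A8 under 2 of 15 and by ACC1 under 1 of 16. L1-box genes were 10.2% higher and 24.9% lower, against 10.3% and 21.6% of all genes.

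**Figure D3:**
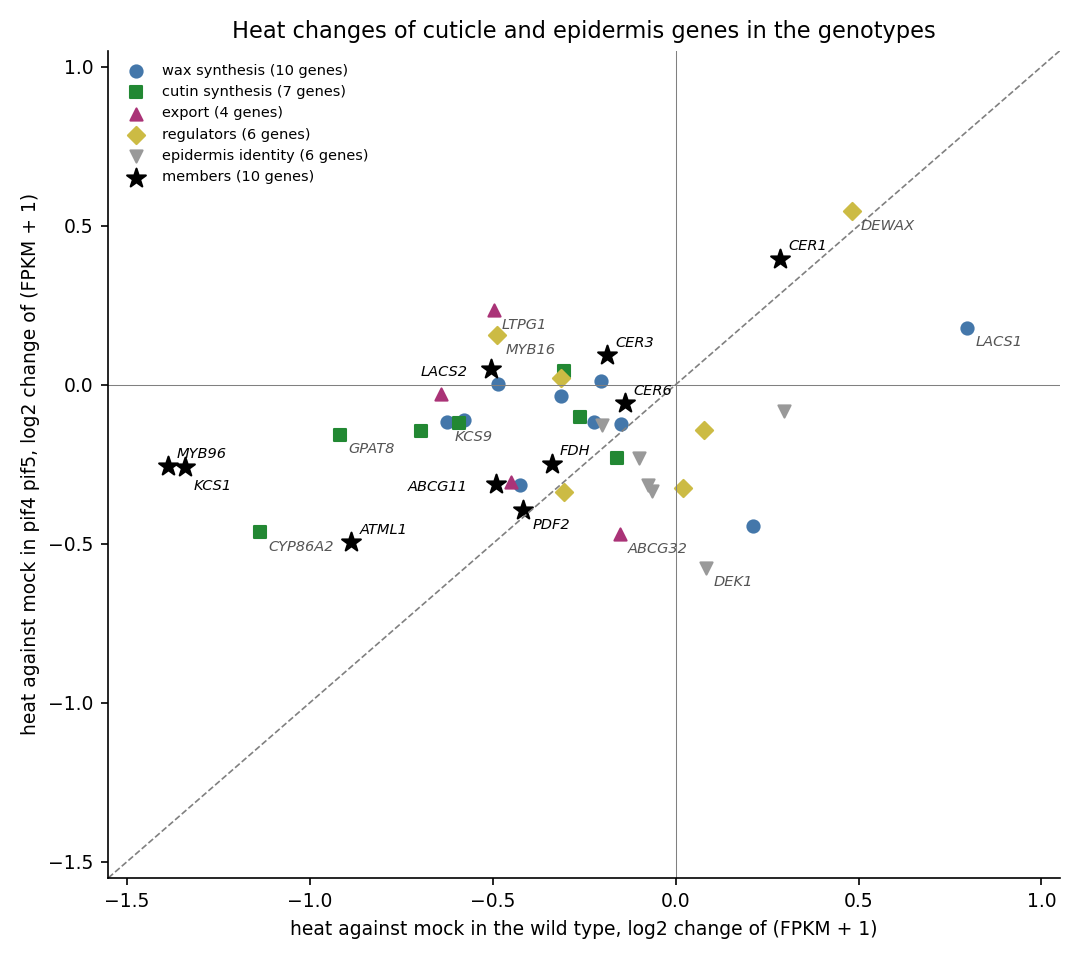
Log2 change of (FPKM + 1) after heat in the wild type (horizontal axis) and in pif4 pif5 (vertical axis) for the 10 members (stars) and the 33 tested genes of the 5 further lists, 1 point per gene. The dashed line marks equal changes. MYB96 and KCS1 lie farthest to the left and above the line, PDF2 lies close to it, and CER1 and DEWAX are above 0 on both axes.

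Without heat, pif4 pif5 already had lower levels of most members. Mutant and wild type in mock share their libraries with the heat comparisons, so these values are not independent of those above. Of 10 members 7 were lower and 0 higher, with 20.7% of all genes called, 13.0% higher and 7.69% lower, and 0 were higher at an unadjusted p or with limma-voom. With median-of-ratios scaling the split over all genes turned from 2185 higher and 1294 lower to 1336 and 1757, with 8 members lower. The 7 calls held under each alternative in which the gene was tested.

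CER1 showed the largest difference, with 4.09 and 3.73 FPKM in wild-type mock and 1.15 and 1.61 in pif4 pif5 mock. The mutant level was 0.354 times that of the wild type, with a log2 change of -1.05 ± 0.12 (adjusted p = 1.0e-04). The log2 change of CER1 is understated by the added 1 FPKM. KCS1 came next, at 50.4 and 48.9 FPKM against 22.9 and 24.2, or 0.474 times the wild-type level. Its log2 change was -1.05 ± 0.09 (adjusted p = 5.2e-06). MYB96 was at 0.63 times the wild-type level (-0.64 ± 0.08, adjusted p = 1.8e-04). The other 4 were ABCG11 (-0.40 ± 0.07, adjusted p = 0.0022), CER6 (-0.38 ± 0.04, adjusted p = 4.5e-05), CER3 (-0.36 ± 0.06, adjusted p = 0.002) and FDH (-0.29 ± 0.06, adjusted p = 0.0047). ATML1 (-0.17 ± 0.07, adjusted p = 0.12), PDF2 (-0.08 ± 0.07, adjusted p = 0.39) and LACS2 (-0.26 ± 0.11, adjusted p = 0.12) were not called, and the libraries of PDF2 overlapped between the genotypes. ATML1 was called lower with either scaling and with limma-voom, where its adjusted p was between 0.031 and 0.045. LACS2 was called lower under 2 of 16 alternatives, without the intensity trend (adjusted p = 0.042) and with limma-voom.

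The mesophyll markers were lower in this comparison too, with 4 of 6 called and summed levels of 16576 to 16797 FPKM in pif4 pif5 against 19765 to 20500 in the wild type. With quantile scaling 3 of 6 were called lower, and with median-of-ratios scaling 5 of 6. Of 6 vascular markers 2 were higher in pif4 pif5, SWEET11 and SWEET12, by 0.61 ± 0.04 each, with a list median of 0.02. SUC2 (173 and 178 FPKM in wild type and mutant), APL (13.6 and 13.7), ATHB8 (6.54 and 6.11) and XCP1 (3.43 and 2.55) were not called. For the other markers, limma called 0 of the 4 guard cell and 3 trichome markers tested, with 0 and 1 of them higher at an unadjusted p below 0.05 and with limma-voom. Their part in the lower cuticle genes was not tested. Of the 33 further pathway genes 11 were lower and 2 higher. LTPG1 was lower by 0.89 ± 0.08 on the log2 scale (adjusted p = 6.0e-06), at 19.5 ± 1.3 FPKM against 37.1 ± 1.84 in the wild type. The cutin genes CYP86A2 and BDG1 (-0.76 each) and GPAT8 (-0.54), the synthase genes KCS9 (-0.27) and KCS20 (-0.24) and the export genes ABCG12 (-0.41) and LTPG2 (-0.65) were lower too. BDG1 lay near the filter of 1 FPKM, at 2.06 and 2.58 FPKM in wild-type mock and 0.843 and 1.09 in pif4 pif5 mock. Its log2 change is understated by the added 1 FPKM. The genes that were higher were LACS1 (0.70 ± 0.07, adjusted p = 3.1e-05) and DEWAX (0.32 ± 0.05, adjusted p = 5.1e-04). Of the 6 epidermis identity genes tested 0 were called, with ANL2 nearest to it (0.15 ± 0.06, adjusted p = 0.083), while 2 were higher at an unadjusted p below 0.05 and 2 with limma-voom.

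After heat the genotypes differed in another order. Of 10 members 2 were higher and 4 lower in pif4 pif5, with 28.6% of all genes called, 11.0% higher and 17.6% lower. Over all genes 1855 were higher and 2959 lower, against 2681 and 2207 with quantile scaling, where 3 members were higher and 2 lower. CER1 was lower in the mutant after heat as in mock, at 2.20 and 2.05 FPKM against 4.81 and 5.16 (-0.94 ± 0.12, adjusted p = 1.3e-04). CER6 was lower too, at 174 and 172 FPKM against 218 and 209 (-0.30 ± 0.04, adjusted p = 1.5e-04). Both calls held under each alternative in which the gene was tested.

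MYB96 was higher in pif4 pif5 after heat, at 13.9 and 12.0 FPKM against 8.90 and 8.88 in the wild type. The groups did not overlap, and the change of 0.49 ± 0.08 (adjusted p = 6.6e-04) has the opposite sign to that in mock. ATML1 was higher by 0.22 ± 0.07 (adjusted p = 0.036), a call lost under 5 of 17 alternatives. FDH (-0.20 ± 0.06, adjusted p = 0.025) and ABCG11 (-0.22 ± 0.07, adjusted p = 0.039) were lower, and their calls were lost under 7 and 9 of 17 alternatives. KCS1, which differed most in mock beside CER1, had overlapping libraries after heat, 19.5 and 19.4 FPKM in pif4 pif5 against 21.3 and 16.9. Its difference was 0.03 ± 0.09 (adjusted p = 0.81). PDF2 (-0.06 ± 0.07, adjusted p = 0.53), CER3 (-0.08 ± 0.06, adjusted p = 0.4) and LACS2 (0.30 ± 0.11, adjusted p = 0.063) were not called. LACS2 was called higher under 3 of 16 alternatives. These were median-of-ratios scaling, quantile scaling and no intensity trend (adjusted p = 0.044, 0.015 and 0.017).

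Of the further pathway genes, 5 were higher and 6 lower after heat, against 7 and 4 with quantile scaling. MYB16 (0.56 ± 0.08, adjusted p = 3.0e-04), DEWAX (0.38 ± 0.05, adjusted p = 6.5e-05), CYP86A8 (0.43 ± 0.11, adjusted p = 0.0093, lost under 2 of 16 alternatives) and KCS9 (0.24 ± 0.05, adjusted p = 0.003) were higher in pif4 pif5. ACC1 (-0.47), ABCG32 (-0.33), ABCG12 (-0.26) and CER9 (-0.26) were lower, as were the epidermis identity genes DEK1 (-0.39) and ALE2 (-0.31), neither of which was called with quantile scaling. The call of ALE2 was lost under 13 of 16 alternatives, that of DEK1 under 6 of 17, and those of ACC1 and ABCG12 under 3 of 17 each. Of 6 mesophyll markers 2 were higher and 1 lower, or 1 and 1 with quantile scaling, and of 6 vascular markers 1 was higher. KAT1 was lower (-0.352, lost under 2 of 17 alternatives) and MYB23 higher (0.523, lost under 3 of 16). The part of these markers in the differences of the cuticle genes was not tested.

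Over the 8 libraries the members did not form a single pattern. Pearson's r of log2(FPKM + 1), which is given as a description over 8 libraries that share 4 groups, was 0.94 between ATML1 and PDF2, 0.94 between ATML1 and MYB96 and 0.90 between MYB96 and KCS1. It was -0.33 between ATML1 and CER1 and 0.26 between ATML1 and CER6. Of 5636 genes with a symbol and a mean of at least 5 FPKM, those most like ATML1 were DWF4 (r = 0.994), a brassinosteroid synthesis gene, the formin gene AFH1 (0.992) and the tubulin gene TUA6 (0.992). DWF4 went from 9.65 FPKM in mock to 3.4 after heat in the wild type, and from 8.07 to 4.77 in pif4 pif5. Those most like FDH were the trehalose phosphate synthase family gene ATTPS6 (0.988), the cellulose synthase gene CESA2 (0.985) and the fimbrin gene FIM1 (0.982). Those most like CER1 were CSLB04 (0.960), a cellulose synthase-like gene, the cytochrome P450 gene CYP89A2 (0.959) and the aquaporin gene PIP1A (0.951).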

How the data were processed

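Per the labels' protocols, RNA came from a phenol extraction followed by DNase, and a directional kit was used for the libraries. The 8 libraries' values were deposited by the authors as FPKM for 34354 loci. TopHat, TopHat2, edgeR and the build TAIR10 are named without versions or roles, per the submitters' processing notes. Which program counted reads, on which annotation and with which strand setting, is not given in the sources used here. For 99.6% of the 23543 loci above 0, the FPKM steps gave whole reads (within 0.1), and 87 very abundant loci without a solution carry no read count. The length behind each member's FPKM equalled the mean of its annotated TAIR10.1 transcripts. Intervals from reads would cover counting error only.

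Sample titles gave the groups. FPKM being no counts, limma rather than a count model was used, on log2(FPKM + 1) of the 16831 genes that reached 1 FPKM in 2 or more libraries, with limma 3.58.1 and R 4.3.3. The model of 4 group means over all 8 libraries, with an intensity trend, had 4 residual degrees of freedom. Tests were two-sided, and a call means p below 0.05 after Benjamini-Hochberg adjustment over all genes tested. The script was checked on simulated data. Replicate libraries differed by more than sampling noise (mean chi-square per gene 2.02 to 4.36), so none was counted as a repeated deposit. The design text of the series calls the replicates biological.

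The members and the 11 lists of 100 further genes were chosen with earlier results of these data known. AT1G02190 and AT5G33370 carry no matching name in the annotation and are not described, and 108 of 110 names matched. Named genes are all members and, from each list, genes among the up to 3 called per comparison with the smallest p, or the 1 nearest where none was called. Not all of these are named under each comparison. Some markers, the genes listed at 0 and the flagged interactions go beyond that choice. The genes most alike in pattern come from outside members and lists. L1-box shares use annotated TAIR10.1 gene starts. Alternatives were a pseudocount of 0.1, other filters on low values, median-of-ratios and quantile scaling, a replicate block, the compared groups alone, no intensity trend, limma-voom on recovered reads, and each library left out. Figures were drawn with matplotlib 3.10.9.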

Additional observations from a re-analysis of the deposited data

Results flagged for a closer look

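The heat change differed between the genotypes, by the interaction test of limma, for 5 of 10 members and for 23 genes of the further lists. Of those lists 33 pathway, 2 suberin, 3 trichome, 4 guard cell, 6 vascular and 6 mesophyll genes were tested. Of all genes tested 31.9% were called, 10.3% higher and 21.6% lower. For each called gene the value is the log2 change after heat in pif4 pif5 minus that in the wild type, and no explanation was tested. Among the members it was 1.13 for MYB96, 1.08 for KCS1, 0.55 for LACS2, 0.39 for ATML1 and 0.28 for CER3. Among the wax, cutin and export genes it was 0.76 for GPAT8, 0.73 for LTPG1, 0.67 for CYP86A2, 0.61 for LTPG2, 0.55 for CYP86A8, 0.51 for KCS9, 0.35 for DCF and 0.28 for KCS20, and -0.32 for ABCG32, -0.62 for LACS1 and -0.65 for ACC1. Among the regulators and epidermis identity genes it was 0.64 for MYB16, 0.33 for MYB30, -0.35 for CER9 and -0.66 for DEK1. FAR1, a fatty acyl reductase gene of suberin synthesis, had -0.92, but it passed the filter on low values only through its 2 wild-type heat libraries, and the call was lost with a pseudocount of 0.1 (adjusted p = 0.099) and with limma-voom (0.23). The guard cell potassium channel gene KAT1 had -0.54. The phloem sugar transporter genes SWEET12 and SWEET11 had -0.60 and -0.26. The leaf photosynthesis genes LHCB2.1, LHCB3, PSAK and CA1 had 1.01, 0.64, 0.61 and 0.33, and reads of LHCB2.1 may be shared with close family members. With 2 libraries per group, a library standing apart within its group could not be identified.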

How the results depend on the processing

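Over 830 repeats of member changes under the alternatives, 739 kept direction and call, 68 lost and 17 gained a call, and 6 turned sign, all of them differences that were not called. These were CER6 after heat in pif4 pif5 (0.021 with median-of-ratios scaling), KCS1 between genotypes after heat (-0.13 without wild-type heat replicate 2), CER1 in the interaction (-0.029 without pif4 pif5 mock replicate 1, and up to 0.248 with other libraries left out) and PDF2 in the interaction (from -0.040 to 0.086 over the libraries left out, negative without wild-type mock replicate 2, wild-type heat replicate 2 or pif4 pif5 mock replicate 1). Members that rose after heat numbered 1 in the wild type with limma-voom (CER1), and 0 in pif4 pif5 without a filter, with the filter at 5 FPKM (which removes CER1 and LACS2) and with the compared groups alone. Members that fell in pif4 pif5 numbered 3 with median-of-ratios scaling or without the trend. After heat, members higher in pif4 pif5 numbered 1 with the compared groups alone, and members lower 2 without a filter, with either scaling or without the trend. Leaving out 1 library gave 7 to 9 members lower after heat in the wild type, 2 to 5 lower and 0 to 1 higher in pif4 pif5, 7 lower between genotypes in mock, 2 to 4 lower and 1 to 2 higher after heat, and 3 to 5 higher in the interaction. Over all genes it gave 4592 to 6426 calls after heat in the wild type, 1451 to 3510 in pif4 pif5, 1780 to 3243 and 2972 to 4961 between genotypes in mock and after heat, and 3926 to 5194 in the interaction. The lowest count came without pif4 pif5 mock replicate 2 for heat in pif4 pif5. The cause of these shifts was not tested. A lone library left in a group was assumed to vary like the others. Depth limits CER1 and LACS2 most.

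Replicate numbers were not shown to pair libraries: differences between replicates 1 and 2 correlated from -0.03 to 0.19 between groups. The 0.19 was between the 2 mock groups. With the replicate block all-gene calls were 6725, 3713, 3878, 5141 and 5645 for heat in the wild type, heat in pif4 pif5, genotype in mock, genotype after heat and the interaction. Without it they were fewer in each comparison, at 6468, 3401, 3479, 4814 and 5371. The block left 9 members lower after heat in the wild type.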

Other observations

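Genes of suberin, the related lipid polymer of roots and wounded tissue, were mostly low in these leaves, and 2 of 11 passed the filter on low values. Under 1 FPKM in the group mean were 9 of 11 in wild-type heat and 10 of 11 in each other group. FAR1 read 0.355 and 0.435 FPKM in wild-type mock, 1.87 and 2.04 in wild-type heat, 0.0668 and 0.113 in pif4 pif5 mock and 0.136 and 0.322 in pif4 pif5 heat. FAR1 passed it only through wild-type heat, so these values are a description. Summed over its 11 genes, the list reached 4.37 to 4.71 FPKM in wild-type mock, 7.15 to 8.46 in wild-type heat, 4.72 to 4.77 in pif4 pif5 mock and 4.01 to 4.58 in pif4 pif5 heat. Several genes of the further lists were at 0 in all 8 libraries, among them the midchain alkane hydroxylase gene MAH1, the genes CYP86A7, CYP77A4 and LTL1 of the cutin list, and the regulator SHN1.

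Summed FPKM of the 16 further cutin genes went from 107 to 112 in wild-type mock to 69.3 to 73 in wild-type heat, and from 83.2 to 84.4 in pif4 pif5 mock to 72.7 to 74.3 in pif4 pif5 heat. The summed 10 further regulators were higher after heat in each genotype, at 197 to 200 and then 233 to 235 in the wild type, and 223 to 231 and then 276 to 285 in pif4 pif5. DEWAX, at 110 to 201 FPKM over the group means, made up most of those sums.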
